A study of Homo sapiens with 6 samples.

Results

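The proteasome genes described here were the sense-strand genes whose symbol is PSM, a letter from A to G and digits, and 48 of the 22984 sense-strand genes of the deposited tables met this rule. They were 19 genes of the 20S core (8 PSMA and 11 PSMB), 6 ATPases of the 19S regulatory particle (PSMC), 14 other 19S genes (PSMD) and 9 genes of activators, an inhibitor and assembly factors (PSME, PSMF and PSMG). Nascent RNA was measured by Bru-seq, in which cells are fed bromouridine and the RNA made during the pulse is captured with an antibody and sequenced, in 6 libraries of the established line HCT116, grown from a human colorectal carcinoma. 2 cultures received 0.01% DMSO for 4 h. Single cultures received siRNA against GSTO1, a glutathione transferase of the omega class, at 10 nM for 24 h (siGSTO1), the GSTO1 inhibitor C1-27 at 1 μM for 4 h or for 24 h, or C1-14, which the study used as an inactive analogue, at 10 μM for 4 h. All 6 were labelled with 2 mM bromouridine for 30 min and taken with no chase. The 24 h cultures had no DMSO or control siRNA culture of their own analysed here and were set against the 4 h vehicle, so treatment cannot be told apart from time in culture or from transfection. A treated condition rested on 1 culture, and the labels do not say how the DMSO cultures were separated, so the spread used below may be technical.

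The proteasome is the protease that degrades most short-lived and misfolded proteins of the nucleus and cytosol. Its 20S core is a stack of rings in which alpha subunits form the gate and some beta subunits carry the peptidase sites, and the 19S particle binds ubiquitylated proteins, removes the ubiquitin and uses its ATPases to unfold and push the protein into the core. Interferon replaces the peptidase subunits by induced ones, and the transcription factor NRF1 (NFE2L1) is known to raise most subunit genes together when the protease is inhibited. Inhibitors of its peptidase sites are used against myeloma.

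Sense-strand counts ran from 18112861 to 36841146 per library, and the 48 genes held 86694 to 186775 of them, or 0.429% to 0.510%, with siGSTO1 the lowest and DMSO culture 1 the highest. In this established line, the epithelial markers KRT8, KRT18 and EPCAM were above 0.5 RPKM in all 6 libraries, CDH1 and VIL1 were not, and no marker of leukocytes, endothelium or fibroblasts passed 0.375 RPKM. The nascent level of GSTO1 was 3.51 and 3.72 RPKM in DMSO and 2.70 RPKM with its siRNA, or 0.748-fold the DMSO mean (edgeR adjusted p = 0.314). An siRNA acts on mature RNA, so this nascent value is a weak check of that label.

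Nascent RNA of nearly the whole proteasome was present, with only the tissue-restricted or induced core genes low. RPKM (reads over exons and introns per kilobase of gene, scaled to the mapped reads of the library, as deposited) sets levels per gene length and shows shares of a library, so a change in total RNA synthesis per cell cannot be seen. Of the 48 genes, 44 had a mean above 0.5 RPKM over the DMSO cultures. The other 4 were PSMA8, a testis-enriched alpha subunit, PSMB8 and PSMB9, both induced by interferon, and PSMB11, the thymus subunit. Among all 48 the DMSO mean was highest for PSMD12, a lid subunit of the 19S particle, at 7.31 ± 0.114 RPKM (SD, n = 2), and next for PSMB1 at 7.22 RPKM. The PSMD12 level was 6.24 RPKM with siGSTO1, 7.68 with C1-27 at 4 h, 7.50 at 24 h and 7.69 with C1-14. Alpha subunits, the constitutive beta subunits PSMB1 to PSMB7, the ATPases and the other 19S genes had similar median levels over their DMSO means (3.68, 4.75, 3.40 and 3.87 RPKM), whereas activators with the inhibitor PSMF1 had a median of 2.47 and assembly factors of 2.14 RPKM. In RPKM, genes of stoichiometric subunits were not at 1 level. PSMA1, an alpha subunit annotated over the longest interval of the family (138759 bp), was at 0.914 and 0.960 RPKM in DMSO, and PSMA5, an alpha subunit of the same ring, was at 5.63 and 4.54. RPKM divides by the annotated interval, which is 27456 bp for PSMA5. Their DMSO counts were closer, at 2968 and 5432 for PSMA1 and 3617 and 5081 for PSMA5. The part of annotated length in the RPKM gap was not tested.

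**Figure D1:**
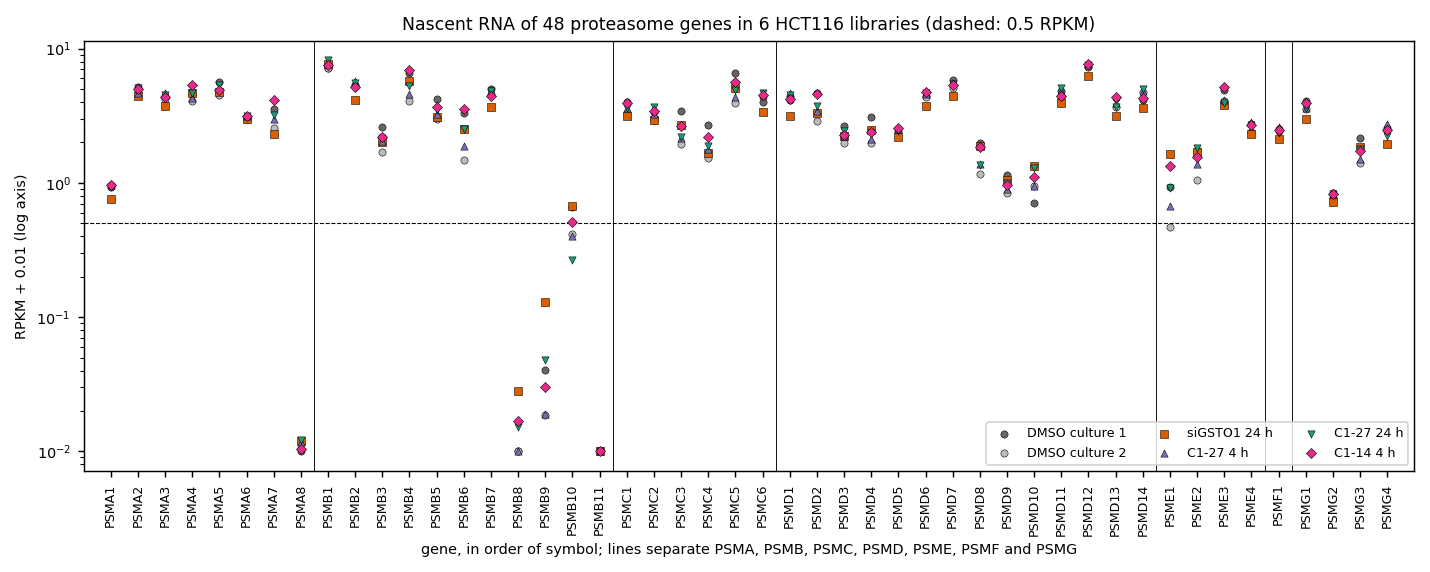
Nascent RNA of the 48 proteasome genes in each of the 6 libraries, as RPKM plus 0.01 on a log axis, with genes in order of symbol on the x axis. The points of a gene lie close together for most genes between 1 and 8 RPKM, and PSMA8, PSMB8, PSMB9 and PSMB11 lie far under the dashed line at 0.5 RPKM in all libraries.

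Since only DMSO had more than 1 culture, the difference between its cultures is the only measure of replicate spread, and for short proteasome genes it was large. The level in culture 2 over that in culture 1 had a median of 0.863 over the 44 genes, against 0.948 over all 7825 genes with a mean above 0.5 RPKM. It ran from 0.444 for PSMB6 to 1.35 for PSMD10. 14 members were 1.4-fold or more lower in culture 2 and 0 were higher, where 16.3% of all genes were lower and 2.84% higher by that measure. Gene length went with this ratio. For the 17 members up to 10 kb the median ratio was 0.624, with 16 of them below 1, and for the 27 longer members it was 0.949. Over all genes the same medians were 0.800 for 1816 genes and 0.986 for 6009 genes. Spearman's rho between length and ratio was 0.700 over the 44 members and 0.416 over all 7825 genes, as a description across genes that share their libraries. The division at 10 kb was chosen after the values were seen.

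**Figure D2:**
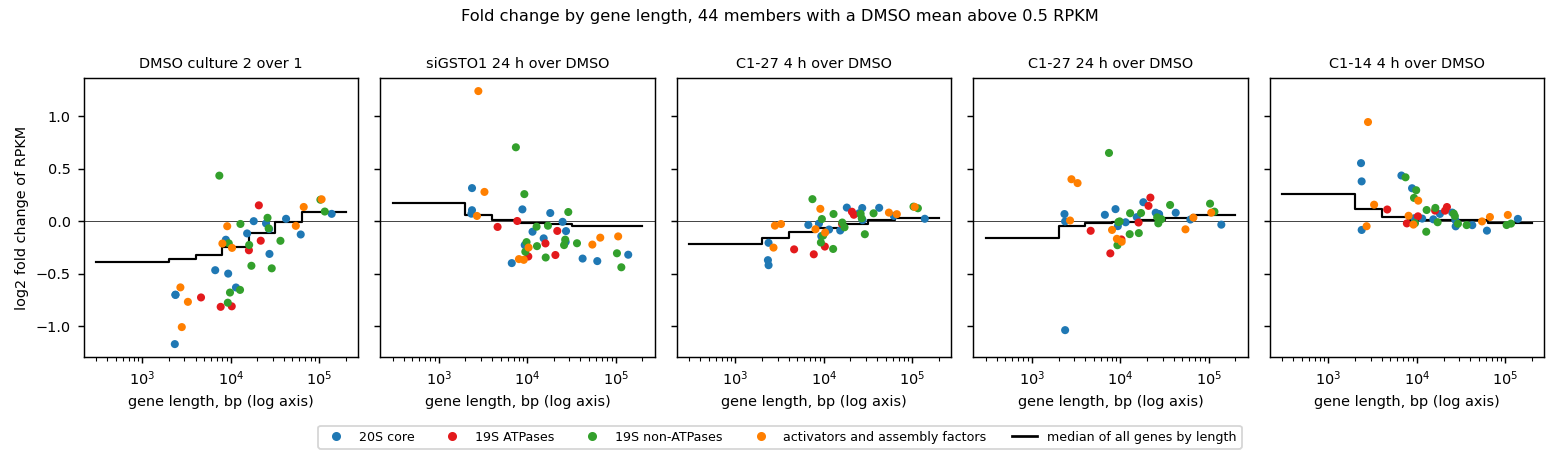
Log2 fold change in RPKM against gene length in bp (log axis) for the 44 members with a DMSO mean above 0.5 RPKM, coloured by part of the proteasome, with the median of all genes in length classes as a black line. In the left panel, DMSO culture 2 over culture 1, short members lie low, with a median ratio of 0.624 up to 10 kb and 0.949 above it, and with siGSTO1 25 of the 27 members over 10 kb lie below 0.

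A fold change is the treated RPKM over the mean of both DMSO cultures, for genes over 300 bp with a mean RPKM above 0.5 over treated and DMSO, and 1.4-fold was the size counted. Few members passed that size in any treatment. With siGSTO1, 2 of 44 members were 1.4-fold or more higher and 0 lower, against 10.5% and 6.48% of all genes. With C1-27 at 4 h there were 0 of 43 in either direction, against 0.457% higher and 2.22% lower. With C1-27 at 24 h there was 1 of 43 higher and 0 lower, against 3.23% and 3.49%. PSMB10 was left out by the filter in both C1-27 comparisons because its treated level was low, and with the 44 members kept by their DMSO mean alone it would count as 1 lower at 24 h (0.487-fold). With C1-14 there were 2 of 44 higher and 0 lower, against 3.71% and 1.01%. The members that did pass were PSME1 and PSMD10 with siGSTO1, PSMD10 with C1-27 at 24 h, and PSME1 and PSMB6 with C1-14. Within 1.2-fold of DMSO were 63.6% of the members with siGSTO1 (all genes 57.7%), 90.7% with C1-27 at 4 h (88.1%), 90.7% at 24 h (74.3%) and 84.1% with C1-14 (84.3%), and 54.5% (57.4%) were within 1.2-fold between the DMSO cultures. The choice of DMSO culture moved these counts. Against culture 2 alone (without culture 1), 7 members were 1.4-fold higher with siGSTO1, 1 with C1-27 at 4 h, 3 with C1-27 at 24 h and 9 with C1-14. Against culture 1 alone, 3 were lower with siGSTO1, 9 with C1-27 at 4 h and 3 with C1-27 at 24 h.

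Across all genes with edgeR's quasi-likelihood test, in which a lone treated culture is assumed to vary like the DMSO cultures, 45 members were tested among 14431 genes and 1 was called in 6 comparisons. It was PSMB9, higher with siGSTO1, where 4.91% of all genes were called at a Benjamini-Hochberg adjusted p under 0.05. PSMB9 entered the test only through the treated libraries in which it was high (18 and 10 counts, against 4 and 2 in DMSO), and without the count filter it was not called (edgeR adjusted p = 0.111). No member was called by edgeR with C1-27 at 4 h (0.0208% of all genes), C1-27 at 24 h (0.36%), C1-14 (0.139%), between C1-27 at 24 h and 4 h (0.125%) or between siGSTO1 and C1-27 at 24 h (1.43%). At an unadjusted p under 0.05, edgeR had 2 members with siGSTO1 (PSMB9 and PSME1), 1 with C1-14 (PSME1), 1 between siGSTO1 and C1-27 at 24 h (PSMB9) and 0 in each of the other comparisons, and DESeq2 called none after adjustment. The members under an unadjusted 0.05 in DESeq2 were other ones, PSMB7 and PSMD1 with siGSTO1 and PSMD1 between siGSTO1 and C1-27 at 24 h. The median 95% interval of a member, not adjusted for the number of genes tested, reached 1.43-fold to 1.52-fold to either side. A call after adjustment over 14431 genes needs a larger change than that. The lack of calls therefore does not exclude changes of this size or somewhat above it in a typical member.

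**Figure D3:**
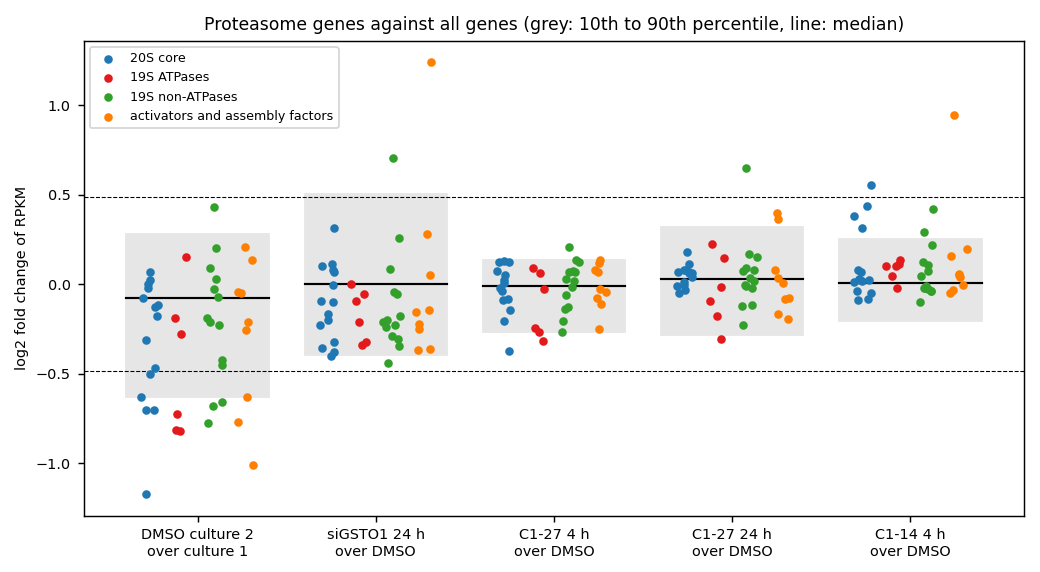
Log2 fold change of RPKM for members with a mean above 0.5 RPKM, one point per gene and coloured by part of the proteasome, for DMSO culture 2 over culture 1 and for each treatment over the DMSO mean. Grey boxes span the 10th to 90th percentile of all genes, black lines are their medians and dashed lines mark 1.4-fold, which PSME1 passes with siGSTO1 and with C1-14, PSMD10 with siGSTO1 and with C1-27 at 24 h, and PSMB6 with C1-14.

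With siRNA against GSTO1, many proteasome genes were slightly below both DMSO cultures and few were above them. This condition is meant to ask which transcription follows loss of the protein, whose level was not measured in these libraries. The median fold change of the 44 members was 0.889 (log2 -0.17), against a log2 median of -0.00072 over all genes. 22 of 44 members (50%) were below both DMSO cultures, against 34.2% of all genes, and 5 (11.4%) were above both, against 35.2%. The 5 were PSMA4, PSMB1, PSMB10, PSMD10 and PSME1. Of the 22, 18 were among the 27 members longer than 10 kb, whose median fold change was 0.864, with 25 below 1, against a median of 0.977 over all genes of that length. The 17 members up to 10 kb had a median of 1.035 against 1.018, with 4 of them below both DMSO cultures and 4 above both. By part, those below both DMSO cultures were 4 of 7 alpha subunits, 2 of 7 constitutive beta subunits, 2 of 6 ATPases, 8 of 14 other 19S genes, 3 of 5 activators and inhibitor, and 3 of 4 assembly factors. None of these lower values passed the edgeR test. A member whose DMSO cultures lie further apart falls below both less easily. In the same order of parts, the median ratio of DMSO culture 2 over culture 1 was 0.922, 0.707, 0.706, 0.871, 0.838 and 0.913. The members' median minus that of all genes was -0.17 on the log2 scale. Against DMSO culture 2 alone, without culture 1, it was -0.085, and against culture 1 alone it was -0.20. For DMSO culture 2 over culture 1 the same difference was -0.135, so the siGSTO1 value was not far beyond the gap between the DMSO cultures.

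The lowest fold changes with siGSTO1 were those of a 19S scaffold, an alpha subunit and a peptidase subunit. PSMD1, the large 19S subunit that docks ubiquitin-handling factors, was at 4.12 and 4.39 RPKM in DMSO, 3.14 with siGSTO1, 4.63 and 4.53 with C1-27 at 4 h and 24 h, and 4.19 with C1-14. The siGSTO1 library was the lowest of the 6, at 0.737-fold (edgeR log2 -0.55 ± 0.295 SE, adjusted p = 0.360), and the other treatments were within or just above the DMSO range. PSMA7, an alpha subunit, was at 3.54 and 2.56 RPKM in DMSO, 2.31 with siGSTO1, 2.98 and 3.18 with C1-27, and 4.12 with C1-14. Its siGSTO1 level was below both DMSO cultures at 0.758-fold and its C1-14 level above both at 1.35-fold, with edgeR adjusted p = 0.507 and 1.00.

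The constitutive peptidase subunits PSMB5, PSMB6 and PSMB7 cut after hydrophobic, acidic and basic residues respectively. None of them was called by edgeR in any comparison. PSMB5 was at 4.22 and 2.98 RPKM in DMSO, 3.07 with siGSTO1, 3.26 and 3.48 with C1-27 at 4 h and 24 h, and 3.67 with C1-14. All 4 treated libraries were within the DMSO range. PSMB7, which spans 61978 bp, was at 4.96 and 4.54 RPKM in DMSO, 3.65 with siGSTO1, 4.92 and 4.80 with C1-27, and 4.46 with C1-14. The siGSTO1 library was below both DMSO cultures by a margin wider than their gap, at 0.768-fold, and C1-14 was just below both at 0.939-fold. PSMB6, a gene of 2334 bp, was at 3.33 and 1.48 RPKM in DMSO, 2.53 with siGSTO1, 1.86 and 2.52 with C1-27, and 3.53 with C1-14. The C1-14 level was 1.47-fold the DMSO mean but 1.06-fold that of culture 1. The C1-27 level at 4 h was within the DMSO range, at 0.773-fold. This was the lowest fold change of that treatment among members over the RPKM filter, which left out PSMB10 at 0.748-fold. With C1-14 the edgeR log2 fold change of PSMB6 was 0.65 ± 0.425 (SE), with an adjusted p of 1.00.

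Of the induced peptidase subunits, which make the immunoproteasome, PSMB8 and PSMB9 were close to silent and PSMB10 was low. The only edgeR call of the family was PSMB9. PSMB8 (chr6:32808494-32812712 of hg19, minus strand) had 0 and 0 counts in DMSO, 2 with siGSTO1, 0 and 1 with C1-27 at 4 h and 24 h, and 1 with C1-14. These are at or under a floor of 3 counts per library and allow no comparison. PSMB9 (chr6:32821938-32827628, plus strand), the induced partner of PSMB6, had 4 and 2 counts in DMSO, 18 with siGSTO1, 2 and 10 with C1-27 at 4 h and 24 h, and 4 with C1-14. The siGSTO1 and the 24 h C1-27 library were above both DMSO cultures and the 4 h libraries were not. In RPKM, PSMB9 was at 0.0301 and 0.00862 in DMSO and 0.121 with siGSTO1, far below the 0.5 RPKM of the fold-change filter. The siGSTO1 count was 7.33 times the pooled DMSO count per mapped read (95% Clopper-Pearson interval 2.79 to 22.6, counting error only), and edgeR gave a log2 fold change of 2.70 ± 0.773 (SE) and an adjusted p of 0.0152. The filter of 10 counts in 2 libraries was met only by the siGSTO1 and the 24 h C1-27 library, so entry to the test depended on the high values themselves. Over the other edgeR settings that adjusted p ran from 0.0141 to 0.113, and with no count filter (0.111) or with the older quasi-likelihood method (0.113) PSMB9 was not called. DESeq2 gave it no adjusted p and an unadjusted p of 0.255. Between siGSTO1 and C1-27 at 24 h, the log2 difference of PSMB9 was 1.58 ± 0.709 (SE), with an edgeR adjusted p of 0.465. PSMB10, the induced partner of PSMB7, had 36 and 39 counts in DMSO, 41 with siGSTO1, 36 and 28 with C1-27, and 41 with C1-14. At 0.655 and 0.403 RPKM in DMSO and 0.658 with siGSTO1, it was at the level of DMSO culture 1, and with C1-27 at 24 h it was below both at 0.258 RPKM. That 24 h count was 0.521 times the pooled DMSO count per mapped read (interval 0.325 to 0.814), and edgeR gave a log2 fold change of -1.02 ± 0.646 (SE) and an adjusted p of 1.00. Antisense reads over PSMB10 were at 58.0% of its sense level in DMSO, so its strand-specific value is less secure than that of most members. PSMB11 had 0 counts in all 6 libraries, which allows up to 3 counts per library, and PSMA8 had 0 and 1 counts in DMSO, 3 with siGSTO1, 4 and 6 with C1-27, and 1 with C1-14, spread over 59504 bp.

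The activator PA28, a ring of PSME1 and PSME2 that opens the core gate and is also induced by interferon, held the largest fold change among members over the RPKM filter. PSME1 (chr14:24605378-24608176, plus strand) was at 0.917 and 0.456 RPKM in DMSO, 1.62 with siGSTO1, 0.666 and 0.905 with C1-27 at 4 h and 24 h, and 1.32 with C1-14. Thus siGSTO1 and C1-14 were above both DMSO cultures and C1-27 was between them at both times. The fold changes were 2.36 with siGSTO1, 0.971 and 1.32 with C1-27, and 1.92 with C1-14. Against each DMSO culture alone they were 1.77 and 3.56 with siGSTO1 and 1.44 and 2.90 with C1-14, and the DMSO cultures themselves differed 0.497-fold. The edgeR log2 fold change of PSME1 was 1.22 ± 0.527 (SE) with siGSTO1 (adjusted p = 0.200) and 1.06 ± 0.521 with C1-14 (adjusted p = 1.00). Antisense reads over PSME1 were at 62.7% of its sense level in DMSO (0.545 and 0.315 RPKM), and were at 0.530 RPKM with siGSTO1 and 0.333 with C1-14 with the C1-14 sense level above both DMSO cultures. With C1-27 they were at 0.386 and 0.456 RPKM. All 4 treated antisense levels were within the DMSO range. The part of antisense reads in the sense value was not tested. PSME2 (chr14:24612574-24615855, minus strand) was at 1.76 and 1.03 RPKM in DMSO, 1.69 with siGSTO1, 1.37 and 1.79 with C1-27, and 1.56 with C1-14. Only the 24 h C1-27 library was above both DMSO cultures, by 1.02-fold over culture 1, so this partner subunit did not follow PSME1 beyond the DMSO spread.

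Activators outside PA28 and the inhibitor stayed within 1.2-fold of the DMSO mean in all 4 treatments. Each was nonetheless below both DMSO cultures with siGSTO1. PSME3, the nuclear activator ring, was at 4.87 and 4.08 RPKM in DMSO, 3.76 with siGSTO1, 4.16 and 3.91 with C1-27 at 4 h and 24 h, and 5.13 with C1-14. It was below both DMSO cultures with siGSTO1 (0.840-fold) and with C1-27 at 24 h (0.873-fold), and above both with C1-14 (1.15-fold). PSME4, the large single-chain activator PA200, was at 2.38 and 2.74 RPKM in DMSO, 2.31 with siGSTO1, 2.81 and 2.71 with C1-27, and 2.67 with C1-14. The fold changes were 0.904 with siGSTO1, the lowest library, and 1.10, 1.06 and 1.04 with the others. PSMF1, the inhibitor PI31, was at 2.51 and 2.43 RPKM in DMSO, 2.12 with siGSTO1, 2.62 and 2.34 with C1-27, and 2.47 with C1-14. Its siGSTO1 library was the lowest of the 6, at 0.857-fold. The assembly factors PSMG1 to PSMG4, chaperones that pair alpha subunits into rings, had fold changes between 0.775 (PSMG4, siGSTO1) and 1.09 (PSMG4, C1-27 at 4 h) in all 4 treatments.

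**Figure D4:**
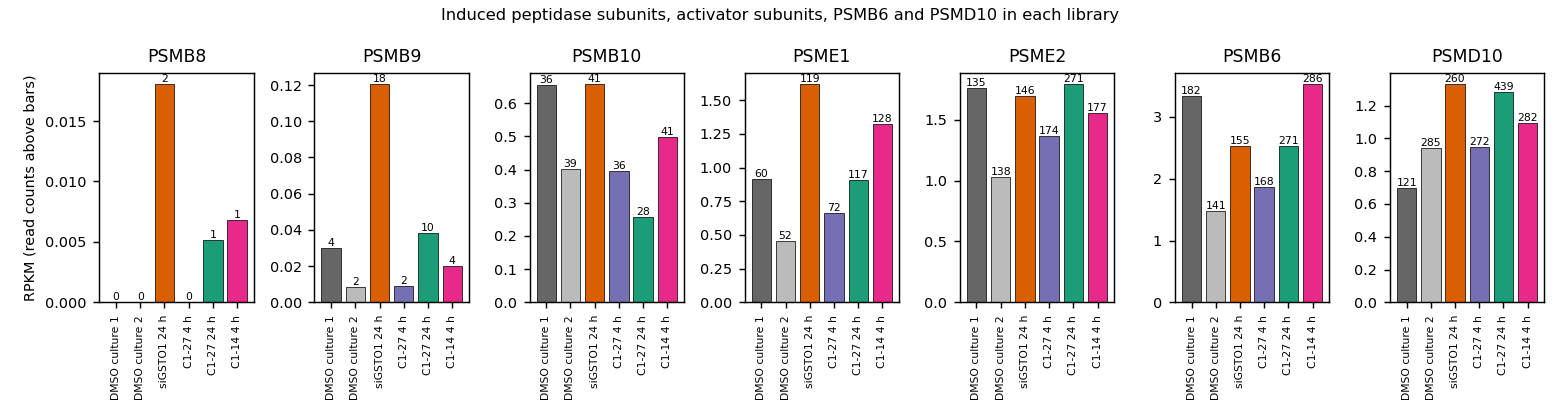
RPKM in each of the 6 libraries, with the read count above each bar, for the induced subunits PSMB8, PSMB9 and PSMB10, the activator subunits PSME1 and PSME2, and PSMB6 and PSMD10, on an axis from 0 for each gene. PSMB9 is highest with siGSTO1 on 18 counts, PSME1 is above both DMSO bars with siGSTO1 and C1-14 only, and PSMD10 is above both DMSO bars in all 4 treated libraries.

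Among the 19S genes, PSMD10 had the highest fold change in each of the 4 treatments. PSMD10 (chrX:107327435-107334874, minus strand) encodes gankyrin, an assembly chaperone of the 19S base that is also known as an oncoprotein, and it is not part of the finished particle. It was at 0.695 and 0.939 RPKM in DMSO, 1.33 with siGSTO1, 0.945 and 1.28 with C1-27 at 4 h and 24 h, and 1.09 with C1-14. All 4 treated libraries were above both DMSO cultures, C1-27 at 4 h by only 1.01-fold over culture 2. PSMB1 was the other member placed so (7.22 and 7.22 RPKM in DMSO, 7.62, 7.90, 8.18 and 7.57 in the treatments), and 286 of 7825 genes (3.65%) were, in comparisons that share their DMSO cultures. The fold changes were 1.63, 1.16, 1.57 and 1.34 in that order, the highest among members over the RPKM filter with C1-27 at both times. It also had the highest ratio of DMSO culture 2 over culture 1 (1.35), so the 4 h C1-27 and C1-14 values were no larger than that gap. Counts were 121 and 285 in DMSO, 260 with siGSTO1, 272 and 439 with C1-27, and 282 with C1-14, and no edgeR comparison called it (log2 0.56 ± 0.413 SE, adjusted p = 0.584 with siGSTO1, and 0.57 ± 0.393 SE, adjusted p = 1.00 with C1-27 at 24 h).

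PSMD14, the deubiquitylase of the lid that removes ubiquitin chains before a protein enters the core, was at 4.11 and 4.73 RPKM in DMSO, 3.58 with siGSTO1, 4.87 and 4.96 with C1-27 at 4 h and 24 h, and 4.31 with C1-14. The siGSTO1 library was below both DMSO cultures (0.809-fold) and both C1-27 libraries were above them (1.10-fold and 1.12-fold). PSMD4, a ubiquitin receptor, was at 3.11 and 1.98 RPKM in DMSO, 2.45 with siGSTO1, 2.12 and 2.33 with C1-27, and 2.37 with C1-14. It was within the DMSO range in all 4 treatments, although its 0.933-fold was the lowest fold change of the family with C1-14. PSMD8, a lid subunit, was at 1.98 and 1.16 RPKM in DMSO, 1.88 with siGSTO1, 1.36 and 1.34 with C1-27, and 1.83 with C1-14. Again no treated library left the DMSO range.

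The ATPases unfold substrates in a ring of PSMC1 to PSMC6, and their fold changes lay between 0.792 and 1.17 in all 4 treatments. PSMC3 was at 3.43 and 1.95 RPKM in DMSO, 2.69 with siGSTO1, 2.16 and 2.17 with C1-27 at 4 h and 24 h, and 2.65 with C1-14. PSMC5 was at 6.53 and 3.95 RPKM in DMSO, 5.04 with siGSTO1, 4.35 and 4.91 with C1-27, and 5.66 with C1-14. Both were within the wide DMSO range in every treated library. With C1-27 at 4 h they held the lowest fold changes after PSMB6 among members over the RPKM filter (0.804 and 0.830).

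C1-27 and C1-14 differed in dose, so their values are set side by side with no comparison of the compounds. With C1-27 at 4 h, 14 of 43 members (32.6%) were above both DMSO cultures and 1 (PSMA2) below both, against 21.6% and 18.9% of all genes, and the median fold change was 0.991. With C1-27 at 24 h, 14 of 43 were above both and 3 (PSME3, PSMF1 and PSMG4) below both, against 36.8% and 21.5%, with a median of 1.02. PSMB10, left out of these C1-27 counts by the filter, was below both DMSO cultures at 4 h and at 24 h. With C1-14, 15 of 44 were above both and 3 (PSMB2, PSMB7 and PSMG4) below both, against 27.2% and 21.6%, with a median of 1.03. The members' median minus that of all genes was -0.0023, 0.0041 and 0.041 on the log2 scale. Against DMSO culture 2 alone, without culture 1, it was 0.098, 0.078 and 0.197, and against culture 1 alone it was -0.076, -0.080 and -0.012, so even the sign depended on the DMSO culture. Libraries resembled each other across groups. Over the 44 genes, the log2 difference between DMSO culture 2 and C1-27 at 4 h had an SD of 0.112, the smallest of the 15 library pairs, against 0.370 between the DMSO cultures and 0.212 between DMSO culture 1 and C1-14. The part of library preparation or scale in this was not tested.

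The promoters of 4 members are printed to show which of 3 motifs their start regions hold. RefSeq windows on GRCh38.p14, from 250 bases before to 50 after the annotated start, were matched by symbol for 42 of the 48 members. They hold the start regions of PSMB9, PSME1 and PSMD10, which had the highest siGSTO1 fold changes in RPKM among the members tested by edgeR. The PSMB9 fold change rests on 4 and 2 counts in DMSO, far below the RPKM filter. PSMB9 entered the test only through the libraries in which it was high. Also printed is PSMA3, an alpha subunit whose fold changes were between 0.872 and 1.09 in the 4 treatments. Capitals mark matches on either strand to TGACNNNGC, the core of the antioxidant response element that NRF1 and NRF2 bind, to CCAAT, the box of NF-Y, and to GAAANNGAA, a core of the interferon response element.
PSMB9 (chr6:32853942-32854241, plus strand): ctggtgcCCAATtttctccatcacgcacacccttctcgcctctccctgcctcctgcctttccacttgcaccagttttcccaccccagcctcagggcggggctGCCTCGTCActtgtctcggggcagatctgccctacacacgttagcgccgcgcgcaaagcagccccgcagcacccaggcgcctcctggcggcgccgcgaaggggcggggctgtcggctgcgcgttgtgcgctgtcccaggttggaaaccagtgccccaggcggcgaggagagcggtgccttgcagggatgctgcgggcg
PSME1 (chr14:24135944-24136243, plus strand): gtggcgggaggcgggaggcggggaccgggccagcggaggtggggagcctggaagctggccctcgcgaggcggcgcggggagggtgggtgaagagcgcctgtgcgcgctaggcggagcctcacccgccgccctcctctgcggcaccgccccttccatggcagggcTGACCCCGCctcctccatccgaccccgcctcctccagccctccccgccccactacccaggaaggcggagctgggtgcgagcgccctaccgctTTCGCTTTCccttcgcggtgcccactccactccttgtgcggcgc
PSMD10 (chrX:108091493-108091792, minus strand): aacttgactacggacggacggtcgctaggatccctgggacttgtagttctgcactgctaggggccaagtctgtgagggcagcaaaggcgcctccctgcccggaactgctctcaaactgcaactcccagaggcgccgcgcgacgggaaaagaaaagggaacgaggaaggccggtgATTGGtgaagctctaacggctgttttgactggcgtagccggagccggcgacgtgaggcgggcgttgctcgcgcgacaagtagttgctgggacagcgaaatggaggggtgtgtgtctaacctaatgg
PSMA3 (chr14:58244593-58244892, plus strand): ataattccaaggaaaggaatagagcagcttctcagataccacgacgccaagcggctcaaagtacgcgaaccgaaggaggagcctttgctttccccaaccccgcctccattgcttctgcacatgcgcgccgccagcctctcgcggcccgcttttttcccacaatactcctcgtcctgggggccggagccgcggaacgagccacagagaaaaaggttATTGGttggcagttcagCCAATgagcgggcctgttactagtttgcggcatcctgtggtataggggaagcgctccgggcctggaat
PSMB9 has a TGACNNNGC match and a CCAAT, PSME1 a TGACNNNGC and a GAAANNGAA match, and PSMD10 and PSMA3 have CCAAT only. Over all matched members, TGACNNNGC was found for 15 of 42 (29.4% of their 51 windows, against 13.3% of all 35116 windows), CCAAT for 20 (39.2% against 34.6%) and GAAANNGAA for 8 (15.7% against 8.11%). Windows of a gene can overlap and matches of different motifs were counted apart. A match is a run of letters and not a measured binding site.

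Genes that work with the proteasome but carry other names were counted from a list of 27, of which 26 passed the 0.5 RPKM filter in each comparison. With siGSTO1, 1 was 1.4-fold or more higher (UBB) and 1 lower, with C1-27 0 at 4 h and 1 higher at 24 h (SQSTM1, at 1.48-fold), and with C1-14 1 was higher. 1 of 26 is no more than the shares of all genes given above for siGSTO1 in either direction, and near those for C1-27 at 24 h and C1-14. KIAA0368 (ECPAS), which ties the proteasome to other cell structures, was the gene below by 1.4-fold against each DMSO culture with siGSTO1. It was at 3.28 and 3.19 RPKM in DMSO, 1.97 with siGSTO1, 3.31 and 3.04 with C1-27 at 4 h and 24 h, and 3.00 with C1-14. The siGSTO1 level was 0.609-fold, with an edgeR adjusted p of 0.0667. The polyubiquitin gene UBB, which supplies ubiquitin under stress, was past 1.4-fold against each DMSO culture with C1-14. It was at 10.3 and 5.03 RPKM in DMSO, 13.1 with siGSTO1, 6.40 and 7.16 with C1-27, and 17.2 with C1-14. The siGSTO1 and C1-14 libraries were above both DMSO cultures and both C1-27 libraries were between them. With C1-14 the UBB level was 2.25-fold, with an edgeR adjusted p of 0.0680, 0.0289 to 0.160 over the other settings and 1.00 with DESeq2. Ubiquitin repeats are nearly alike between genes, so its reads could be shared with other copies. NFE2L1, which encodes NRF1, was at 3.22 and 1.75 RPKM in DMSO, 2.71 with siGSTO1, 1.79 and 2.06 with C1-27, and 2.14 with C1-14, within the DMSO range in every treated library.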

How the data were processed

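Bru-seq of HCT116 gave 1 library per culture, 2 with DMSO and 1 for each of 4 treatments, grouped by the sample labels. The authors deposited, per gene and strand, expected counts over exons and introns (not normalized and not always whole), a signal (that count per bp, not used in tests) and RPKM, which the authors scaled by 23388425 to 46017052 mapped reads per library. The submitters' processing notes name CASAVA 1.8.2, Bowtie 0.12.8, TopHat 1.4.1, bedtools 2.16.2 and hg19. The annotation and how reads shared with pseudogene copies were counted are not given in the sources used here. Gene coordinates are as deposited, 1-based, and those of promoters are from RefSeq on GRCh38.p14.

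Fold changes used the deposited RPKM with the filters of the study's methods, over 300 bp and a mean above 0.5 RPKM, and no pseudocount. Rounded sense counts of the 14431 genes over 300 bp that reached 10 counts in 2 or more libraries were tested with edgeR 4.0.16 (TMM, quasi-likelihood, 5 groups, R 4.3.3), with Benjamini-Hochberg adjustment over all genes of a comparison. The DMSO pair gave the fit its 1 residual degree of freedom, and the common dispersion was 0.0381. The median prior degrees of freedom were infinite, so the variance was in effect pooled over genes. An SE or interval of a gene therefore does not measure the DMSO spread of that gene. DESeq2 1.42.0 was an alternative, with other scaling, filters, pseudocount and single DMSO cultures. Ratios of few counts had 95% Clopper-Pearson intervals, which cover counting error only. No member overlapped another gene on its own strand and 9 overlapped one on the other strand. The scripts were tested on simulated data (pandas 2.3.3, scipy 1.17.1, numpy 2.4.6 and matplotlib 3.10.9 in Python 3.11.15). The 48 ambiguous-strand rows were left out.

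The members and the other lists were chosen with earlier results of these data known. Named were the peptidase subunits PSMB5 to PSMB10, PSME1 to PSME4, PSMF1, PSMD14, each member with an edgeR adjusted p under 0.05, the 3 highest and 3 lowest fold changes of each treatment, and listed pathway genes past 1.4-fold against each DMSO culture. The highest and lowest fold changes were ranked among members over the RPKM filter. PSMD12, PSMB1, PSMA1, PSMA5, PSMA3, SQSTM1 and NFE2L1 were named after their values were seen. 1 listed gene is not reported here.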

Additional observations from a re-analysis of the deposited data

How the results depend on the processing

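The fold-change counts moved with the DMSO culture used, except that of members lower with C1-14, which stayed 0. With siGSTO1 the range was 2 to 7 members higher and 0 to 3 lower. With C1-27 it was 0 to 1 higher and 0 to 9 lower at 4 h. At 24 h it was 1 to 3 higher and 0 to 3 lower. With C1-14, 2 to 9 members were higher, and the median difference from all genes ran from -0.012 to 0.197. Rescaling the siGSTO1 RPKM moved the median of all genes to -0.10 (TMM) and -0.15 (DESeq2 size factors) and gave 3 and 7 members lower, with the members' median still 0.18 and 0.16 below that of all genes. Without the RPKM filter 4 members were higher with siGSTO1, 1 higher and 1 lower with C1-27 at 4 h, and 3 higher and 1 lower at 24 h, and the genes added had few counts. The edgeR count of 1 with siGSTO1 (PSMB9) became 0 with no count filter (log2 2.69), with the older quasi-likelihood method, chosen after seeing the data (2.65), and with DESeq2 (2.56). The other 126 recomputed values of the main comparisons stayed within limits wide enough to pass some changes of sign. They include edgeR counts of 0 that stayed 0. They also include the siGSTO1 median difference from all genes, which ran from -0.313 without the RPKM filter to -0.085 without DMSO culture 1. No called value changed direction, but uncalled ones did with the DMSO culture: PSMB6 with C1-27 at 4 h went from 0.773 to 1.26 without culture 1, and the members' median minus that of all genes changed sign with C1-27 at 4 h (-0.0023 to 0.098), at 24 h (0.0041 to -0.080) and with C1-14 (0.041 to -0.012). edgeR without one DMSO culture could not be fitted with a test, since no residual degree of freedom is left. No paired analysis was possible because only DMSO had 2 cultures. Precision was limited by the single treated cultures, by the length-related gap between the DMSO cultures and, for PSMB8, PSMB9 and PSMB11, by counts of 18 or fewer.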

Other observations

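Antisense reads over the proteasome genes were rare. Of the 43 members with an antisense entry and a DMSO mean above 0.5 RPKM, the median antisense level was 0.186% of the sense level, and 3 were above 10%, namely PSMD6 (16.6%), PSMB10 (58.0%) and PSME1 (62.7%). PSMD6, a 19S subunit, overlaps LOC100507062 on the other strand by 1687 bp. Its antisense level was 0.737 and 0.730 RPKM in DMSO, 0.573 with siGSTO1, 0.733 and 0.759 with C1-27 at 4 h and 24 h, and 0.612 with C1-14. The siGSTO1 library was the lowest on this strand too, where the sense level of PSMD6 was 4.45 and 4.37 RPKM in DMSO and 3.74 with siGSTO1. This was not tested.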
